A study of Caenorhabditis elegans with 4 samples.

Results

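The regions described here are the LIN-15B peaks on the X chromosome of Caenorhabditis elegans, taken as every region on X in 1 peak list for the whole experiment. They number 532 of 4141 regions, or 12.8%. The regions on chromosomes II (616), III (809), IV (829) and V (691), 2945 in all, serve for comparison. The list came from chromatin immunoprecipitation and sequencing (ChIP-seq) of whole hermaphrodites of strain OP184 at the L3 larval stage, fed HB101 bacteria at 20 °C. Tagged chromatin recovered with a goat antibody against GFP gave 2 libraries and input DNA gave 2, in replicates 1 and 2. All 4 libraries share the genotype unc119(ed3);wgIs184, in which an integrated transgene made by particle bombardment carries lin-15B fused to TY1, EGFP and FLAG together with an unc-119 rescue gene. OP184 is a single transgenic line, the antibody reads the tag and not the native protein, and whole worms do not show in which cells a region was bound. The list has no value for either replicate and no read depth, so spread between replicates could not be computed. Intervals and tests below cover counting error over regions treated as independent.

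LIN-15B carries a THAP-type zinc finger and belongs to the synMuv B proteins, known for restraining vulval induction and for keeping germline genes silent in somatic tissue. The lin-15B gene is itself X-linked, and the transgene carries a further copy of its sequence. Its position in the coordinates of the list was not examined, so regions at that locus were not set apart. Signal from the transgene cannot be told there from signal of the native locus. In the hermaphrodite both X chromosomes are present in each somatic cell, as the autosomes are, and a condensin-based dosage compensation complex lowers their transcription. In the germ line the X is largely kept silent for much of development, and it carries few genes of germline-specific expression. The autosomes of this species have gene-dense, highly expressed centres and repeat-rich arms, a contrast that is weak on X.

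Per Mb, LIN-15B regions on X were sparse against II to V together, and the shortfall was larger among strong regions than among weak ones. X held 30.2 regions per Mb (95% exact Poisson interval 27.7 to 32.9) over the 17.6 Mb from its first region to its last. Chromosomes II to V together held 43.8 per Mb (42.2 to 45.4). The X density was 0.690 times theirs (95% interval 0.628 to 0.757; exact conditional binomial test, two-sided, adjusted over 6 measures, p = 1.3e-15). That interval and test do not cover the spread between II, III, IV and V, which singly held from 33.1 to 58.9 per Mb. Against single chromosomes the X density was 0.747 times that of II, 0.513 times that of III and 0.634 times that of IV, each below 1 in the exact binomial test adjusted over 4 chromosomes (p = 1.2e-06, 3.8e-33 and 2.6e-16). Chromosome V, at 33.1 regions per Mb, could not be told from X at a ratio of 0.912 (0.813 to 1.02; adjusted exact p = 0.11). X was called below V among regions with a q-value under 0.001 (0.843, adjusted exact p = 0.012) and among the 2070 strongest regions of the list (0.773, p = 0.0036). Bound regions covered 1.26% of the X span, the same share as on V (1.26%), against 1.64% on II, 1.83% on IV and 2.27% on III.

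Scaled to genes, the order changed. X carries 2730 protein-coding genes in the RefSeq gene table of assembly WBcel235, from which numbers only were taken. There were 19.5 regions for every 100 of these genes on X, 17.9 on II, 13.8 on V, 25.3 on IV and 30.6 on III. The ratio of X to II to V combined was then 0.95 and did not pass (adjusted exact p = 0.29), while X lay 1.41 times above V (adjusted exact p = 8.4e-09).

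The strength of a region, written as -log10 q from the q-value that the authors gave it, reflects read number and enrichment alike. It had a median of 4.69 on X (quartiles 2.74 and 9.39) and 6.46 on II to V (3.21 and 16.8). Regions with a q-value under 1e-10, called strong here, made up 24.1% of those on X (128 of 532, 95% exact interval 20.5% to 27.9%). On II to V the share was 37.5% (1104 of 2945, 35.7% to 39.3%), and the difference of -13.4 percentage points passed Fisher's exact test (two-sided, adjusted over 6 measures, p = 3.6e-09). The strong share on each of the other chromosomes was higher than on X, at 40.3% on II, 39.8% on III, 35.5% on IV and 34.7% on V (Fisher's exact test, adjusted over 4 chromosomes, p between 8.3e-09 and 5.6e-05). Strong regions numbered 7.26 per Mb on X (6.06 to 8.64) and 16.4 per Mb on II to V, a ratio of 0.443. The remaining, weaker regions numbered 22.9 per Mb on X, 0.838 times the density of II to V and close to 24.1 on II and 21.6 on V, with 30.7 on IV and 35.4 on III. Per 100 protein-coding genes X held 4.69 strong regions, near the 4.80 of V and below the 7.20 of II, 8.96 of IV and 12.2 of III. Weaker regions per 100 genes numbered 14.8 on X, above 10.7 on II and 9.03 on V and below 16.3 on IV and 18.4 on III. On II to V together they numbered 12.8, so by this count the pooled shortfall on X lay in strong regions alone.

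The share of X rose down the list. Among the 415 regions of smallest q-value 24 lay on X, 5.78% (3.74% to 8.48%), followed by 7.73% and 9.18% in the next 2 of 10 equal parts of the list. From the fourth part to the ninth the share ran between 12.3% and 16.7%, and it reached 20.0% (83 of 414, 16.3% to 24.2%) in the last, where -log10 q lay between 2.00 and 2.37. The corresponding shares of V lay between 13.04% in the second part and 18.6% in the eighth. X supplied 2 of the 100 strongest regions of the list, 12 of the 200 strongest and 71 of the 1000 strongest. At the other end, 160 regions on X had a q-value of 0.001 or more, leaving 69.9% below that value against 78.8% on II to V.

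**Figure D1:**
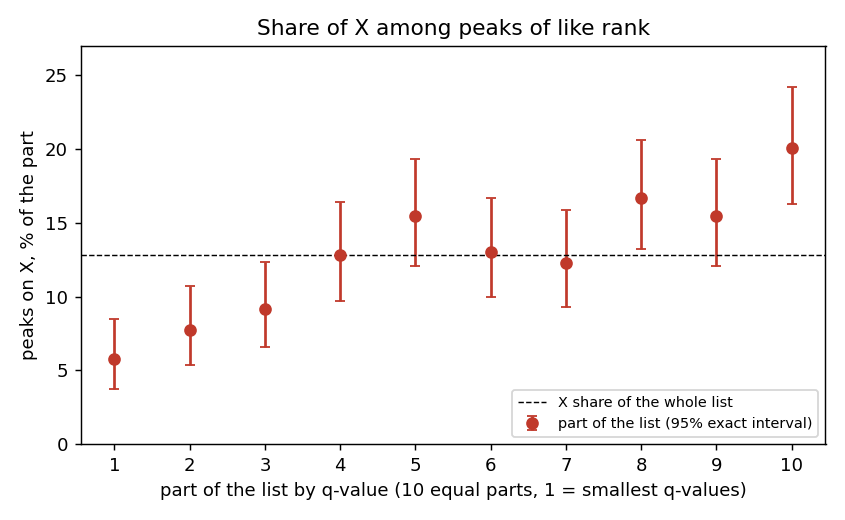
The vertical axis gives the percentage of regions that lie on X in each of 10 equal parts of the list, ordered from the smallest q-values (part 1) to the largest (part 10); bars are 95% exact binomial intervals and the dashed line marks the 12.8% of the whole list. The share climbs from 5.78% to 20.0%.

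The 15 strongest regions on X had -log10 q from 50.6 to 123, and 5 of them fell in each of the left, central and right sections of the span. Coordinates are those of WormBase WS180, and the genes at these positions were not analysed here. The strongest by far, at X:5840831-5841508 with -log10 q of 123, was the only one on X past 100 and stood 14th in the whole list. The next, at X:4711800-4712297, reached 80.96 and stood 94th. Then came X:10568146-10569195 with 76.9, X:768009-768491 with 76.6, X:6091782-6092699 with 75.2 and X:15840965-15841430 with 70.5. The others lay at X:2242756-2243200, X:7068315-7068722, X:15724433-15726076, X:7822935-7823512, X:4469253-4469667, X:14169518-14169996, X:14707921-14708601, X:6840800-6841235 and X:14101885-14102359, with values from 65.5 down to 50.6. Their widths ran from 408 to 1644 bp. The nearest other region lay between 0.797 and 36.3 kb away, at a median of 6.33 kb, while the median for all X regions was 9.81 kb.

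Counts per window varied less along X than along the other chromosomes. In the 34 full windows of 500 kb the number per window ran from 9 to 24 around a median of 15, and the ratio of variance to mean was 0.905. The same ratio was 1.76 on III, 2.35 on IV, 2.60 on II and 2.89 on V, as a description without a test. With each span divided into 20 equal parts, the fullest part of X was 2.06 times as dense as the emptiest, against 2.67 times on III, 3.22 on IV, 5.0 on II and 8.57 on V. The fullest windows of X were 13500001 to 14000000 with 24 regions, 14500001 to 15000000 with 22 and 1000001 to 1500000 with 21. The emptiest were 3500001 to 4000000 with 9 and 2 windows with 10, starting at 3000001 and 9000001.

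The centre of X was no denser than its outer sections. The central 33.3% of the span, from 5.88 to 11.8 Mb, held 158 regions, or 29.7% (25.8% to 33.8%), at 26.9 per Mb. The left section held 169 at 28.8 per Mb and the right 205 at 34.9 per Mb. On II to V the central share was 37.4% (35.6% to 39.2%), 7.69 percentage points above X (Fisher's exact test, two-sided, adjusted over 6 measures, p = 0.0014). By chromosome the difference passed against V (41.4%), II (38.0%) and III (36.7%) with adjusted Fisher's exact p of 0.00011, 0.0067 and 0.011, and not against IV (34.3%, p = 0.085). Strength varied little between the sections of X, with strong shares of 24.3%, 22.8% and 24.9% from left to right and medians of 4.97, 4.61 and 4.50. On II the corresponding strong shares were similarly level, at 38.8%, 41.0% and 40.3%, and on III they were 32.2%, 43.4% and 42.3%.

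Among regions outside the centre, the left section of X held 45.2% (169 of 374), against 49.5% on II to V (adjusted Fisher's exact p = 0.14). The pooled figure hides opposite slopes, as the left share was 36.4% on II and 59.4% on IV. X lay above II (adjusted Fisher's exact p = 0.029) and below IV (p = 8.8e-05) and V (53.6%, p = 0.029), and could not be told from III (45.5%, p = 0.95). The call against IV held under the alternatives run. That against II was lost with a q-value under 0.001, among the 2070 strongest regions and with each span cut at its middle (adjusted exact p = 0.053, 0.13 and 0.074). That against V was lost under these 3 settings (exact p = 0.14, 0.25 and 0.58) and after regions within 1 kb were merged (p = 0.074).

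The densest stretch of X, singled out after its values were seen, ran from 70% to 90% of the span (12.3 to 15.9 Mb). Its 4 parts held 35, 37, 32 and 37 regions, 141 in all at 40.01 per Mb, where the rest of X averaged 27.7 per Mb. Strong regions were concentrated in the right end of that stretch. From 14.1 to 15.9 Mb, 30 of 69 regions were strong (43.5%), against 98 of 463 elsewhere on X (21.2%), so that 10% of the span held 23.4% of the strong regions. No other part of X held more than 8 strong regions, while these parts held 15 each. In windows of 500 kb the strong share reached 50% at 14500001 to 15000000 and at 15500001 to 16000000. The window between them had 27.8% (5 of 18), and the next highest share was 43.75%, far to the left at 500001 to 1000000.

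**Figure D2:**
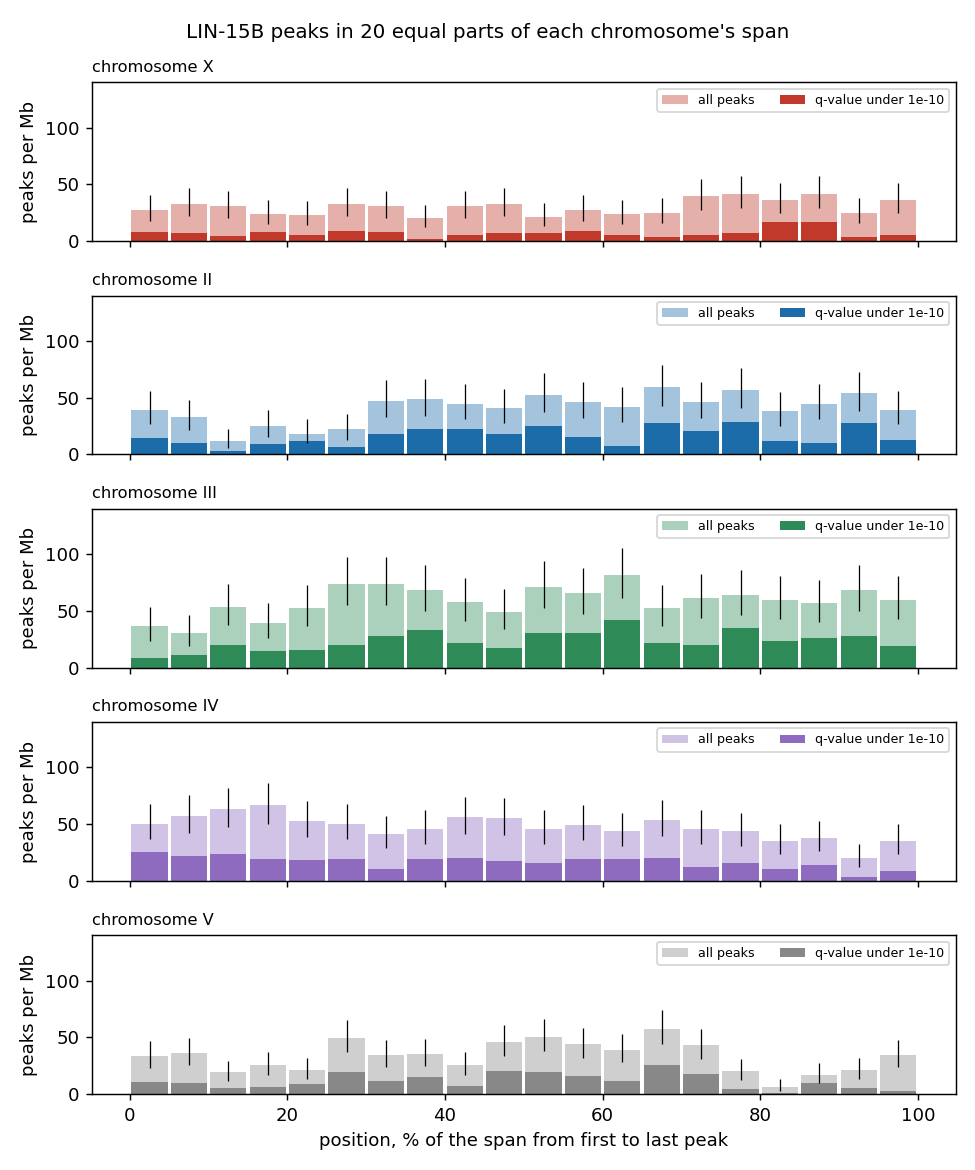
Bars give regions per Mb in 20 equal parts of each chromosome's span, from the first region (0%) to the last (100%), with 95% exact Poisson intervals for all regions; the dark part of each bar counts regions with a q-value under 1e-10. X stays between 20.4 and 42.0 per Mb, and its dark bars are highest at 80% to 90%, where each part holds 15 strong regions.

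Neighbouring regions on X were far apart. The median distance between neighbouring midpoints was 19.8 kb (quartiles 7.77 and 45.6 kb), against 11.9 kb on II to V and 16.0 kb on V, the chromosome of most similar density. Pairs within 2 kb made up 4.90% of neighbours on X (26 of 531), 8.62% on II, 12.005% on III, 13.0% on V and 14.3% on IV. Each of the other chromosomes lay above X in Fisher's exact test adjusted over 4 chromosomes (p between 5.5e-08 and 0.014). This limit is not scaled to density. A distance of 20 kb or more to the nearest region on either side was found for 134 regions on X, or 25.2%, and for 19.2% on V and 13.5% on II to V. Grouping regions whose midpoints lay under 5 kb from the next left 71.1% of X regions single, against 48.0% to 58.0% on the other chromosomes. Groups of 3 or more held 9.02% of X regions, and 15.4% to 26.2% on II to V.

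Part of this follows from density, so distances were also divided by each chromosome's mean. Edges of neighbouring regions were at least 202 bp apart on every chromosome compared, a floor that scaling does not remove. The mean distance was 33.2 kb on X and 17.0 kb on III, so the floor takes up more of the scaled range on III. Distances under 0.1 of the mean made up 9.98% of those on X (53 of 531, 7.57% to 12.9%) and 14.1% on II to V (12.9% to 15.4%). The difference of -4.13 percentage points passed Fisher's exact test (two-sided, adjusted over 6 measures, p = 0.013). By chromosome it passed against V (19.4%, adjusted exact p = 1.8e-05) and IV (15.1%, p = 0.013), while III (10.02%, p = 1.0) and II (12.2%, p = 0.35) could not be told from X. The pooled call was lost among regions with a q-value under 0.001 (a difference of -3.58 points, adjusted exact p = 0.076) and among the 2070 strongest regions of the list (-0.211 points, p = 1.0). The call against IV was lost in both sets (adjusted exact p = 0.14 and 0.90) and that against V in the second (p = 0.90). Merging regions less than 1 kb apart, a step that takes away close pairs, turned the pooled difference to 0.0694 points (adjusted exact p = 0.93). By chromosome it was then 4.07 points against III, and the call against V held at -6.07 points (adjusted exact p = 0.0050 for both).

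**Figure D3:**
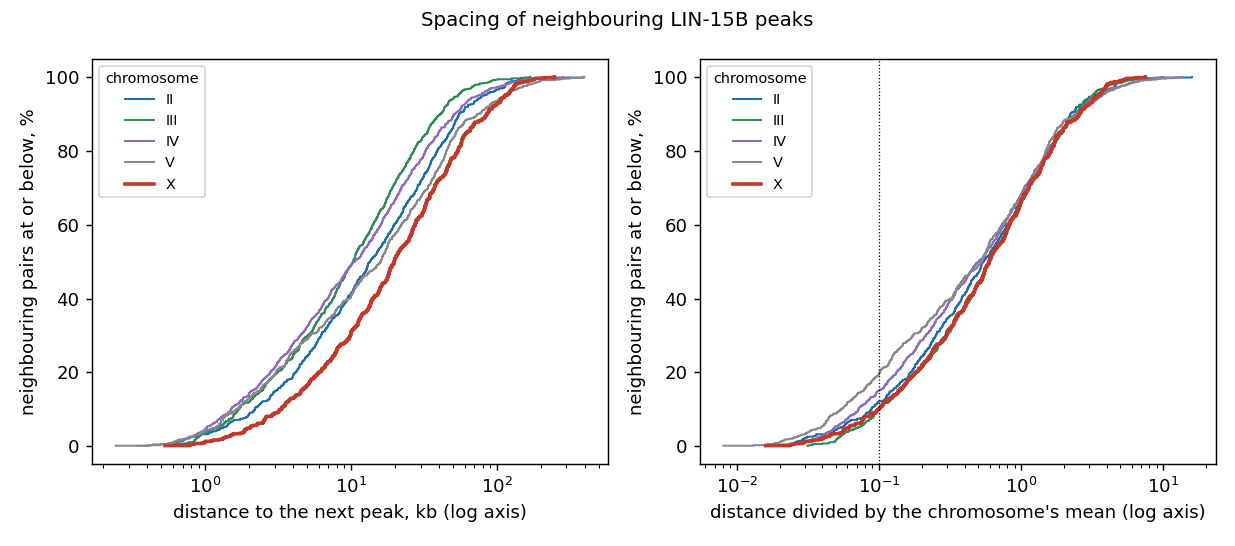
Each line gives the percentage of neighbouring pairs at or below a distance between midpoints, in kb on the left and divided by the chromosome's own mean distance on the right (both axes logarithmic; X is the thick line, the dotted line marks 0.1). In kb X lies to the right of the others for most of the range, with a median of 19.8 kb; after scaling it runs with III and below V at short distances.

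The closest pair on X had midpoints 529 bp apart, at X:3802838-3803144 and X:3803351-3803689, with -log10 q of 2.37 and 6.97. The next 4 pairs lay 786, 797, 845 and 959 bp apart, starting at 15616349, 6091782, 17610324 and 13144052. No edges came closer than 203 bp on X. The longest group, from 15274084 to 15285788, held 6 regions within 11.7 kb with -log10 q between 2.197 and 11.4. The next, with 4 regions each, lay from 1445732 to 1454814 and from 11473031 to 11482882.

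Long stretches without a region were common on X, but none reached the longest of II, IV or V. There were 38 stretches of 100 kb or more, which took up 28.7% of the span, against 34.3% on V, 20.1% on II, 18.9% on IV and 5.997% on III. The longest ran from 4712298 to 4960347, 248 kb, and began at the edge of the second strongest region of X. The others of the 5 longest ran from 1627446 to 1837798 (210 kb), 142259 to 324014 (182 kb), 10197576 to 10377591 (180.02 kb) and 1128851 to 1302239 (173 kb). The longest stretches on II, IV and V reached 395, 287 and 397 kb. Of 175 windows of 100 kb on X, 17 (9.71%) held no region, between the 16.4% of V and the 5.78% of IV. Strong regions alone had a median spacing of 93.6 kb on X, against 24.7 to 43.5 kb on the others, not scaled to their density. Their longest interval on X ran from 6092700 to 6840799, 748 kb between the 5th and the 14th strongest regions of X. It was longer on II (802 kb) and V (892 kb) and shorter on IV (692 kb) and III (304 kb).

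As deposited, very wide regions took a larger share on X. The median width was 364 bp (quartiles 287 and 475 bp), near the 362 bp of II to V. Widths above 1000 bp were found for 16 regions on X, or 3.01% (1.73% to 4.84%), and for 32 on II to V, or 1.09% (0.744% to 1.53%; Fisher's exact test, two-sided, adjusted over 6 measures, p = 0.0025). The difference passed against II (0.974%), III (0.865%) and V (1.013%) with adjusted Fisher's exact p from 0.018 to 0.023, and not against IV (1.45%, p = 0.052). At a limit of 600 bp the pooled difference did not pass (11.8% on X and 9.13% on II to V, adjusted exact p = 0.065), nor did that against any single chromosome. At 800 bp those against II and IV did not (adjusted exact p = 0.12 and 0.071). Against IV the difference above 1000 bp passed with a q-value under 0.001 and among the 2070 strongest regions (adjusted exact p = 0.028 and 0.013). Once regions within 1 kb were merged, which makes wide regions out of close pairs, the pooled difference turned to -1.37 points (5.61% and 6.98%, adjusted exact p = 0.36), and it turned against each of the 4 chromosomes. Wide regions made up 9.40% of the bases covered on X, against 3.65% on II to V.

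The widest region of X was not its strongest, though 2 of its 15 strongest regions were wider than 1000 bp. The widest, X:3114650-3116675 at 2026 bp, had -log10 q of 7.18. It was followed by X:15740894-15742915 at 2022 bp with 12.1, X:6740648-6742446 at 1799 bp with 9.31, X:15724433-15726076 at 1644 bp with 62.3 and X:11464255-11465557 at 1303 bp with 8.35. The second and the fourth of these lie 16.7 kb apart, midpoint to midpoint. Over all 16 wide regions the median -log10 q was 16.4 on X, and over the 32 on II to V it was 32.7. Of the wide regions, 12 of 16 on X and 30 of 32 on II to V were strong. Among all regions the strong share was 24.1% on X and 37.5% on II to V.

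In most classes of strength the median width was higher on X than elsewhere. In the class with -log10 q from 10 to 20 the median width was 438 bp on X (72 regions), while the medians of II, III, IV and V lay between 396 and 400 bp. From 20 to 50 it was 498 bp on X (39 regions) and 413 to 439 bp on the others, and from 3 to 5 it was 355 bp (119 regions) and 301 to 323 bp. In 5 of 6 classes of strength the X median lay above that of each of the 4 other chromosomes, and above 50 (17 regions on X) it lay among them, at 483 bp. Width and strength come from the same peak call, and these medians are a description without a test. Across the 532 X regions, which share libraries and peak calling, wider regions tended to be stronger (Spearman's rho 0.676, Pearson's r 0.356). On the other chromosomes the Spearman values ran from 0.695 to 0.737.

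**Figure D4:**
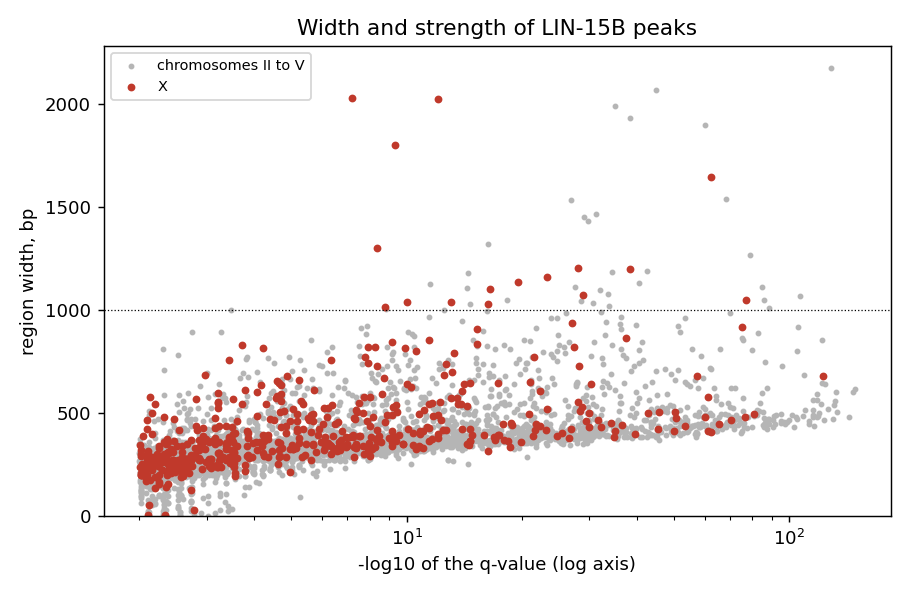
Each point is a region, with -log10 of its q-value on a logarithmic horizontal axis and its width in bp on the vertical axis; X is red, II to V grey, and the dotted line marks 1000 bp. The widest X regions, at 1303 to 2026 bp, lie at -log10 q of 7.18 to 12.1 with 1 exception at 62.3.

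On X 4 regions were under 50 bp (0.752%), a share between the 0.162% of II and 0.618% of III and the 1.30% of V and 1.69% of IV. Their -log10 q did not exceed 2.79. The narrowest was a single base at 13156422, followed by regions of 7 bp at 14937698 and 8 bp at 15171008 and of 29 bp at 104895. No 2 regions on X overlapped.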

How the data were processed

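The data were 1 list of regions that the authors deposited for the whole series. Per the file headers the build is WormBase WS180 and the regions come from PeakSeq. The q-value of each region was used as the authors deposited it; the score and attribute entries were equal in 4141 lines to a relative tolerance of 1e-09. How reads were aligned and filtered, PeakSeq was set and replicates were joined is not stated in the labels or headers. Depth is unknown, and no value per library was used. Per the labels' protocols, worms were crosslinked with 2% formaldehyde, chromatin was sonicated, and fragments were selected by size on a gel. The extraction text speaks of embryos, while the labels give L3.

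Width counts both end bases, position is the midpoint, and a chromosome's span reaches from the start of its first region to the end of its last. Densities were compared by exact conditional binomial tests and shares by Fisher's exact test, two-sided, adjusted by Benjamini-Hochberg over 6 measures (X against II to V) or over 4 chromosomes, with a threshold of 0.05. Intervals are exact (Clopper-Pearson or Poisson) at 95%. Neighbouring regions are not independent, so p-values may be too small. The pooled tests also leave out the spread between chromosomes II to V. Chromosome I entered only the ranks and the total of the list. Named were the 15 strongest and 5 widest regions of X, the narrowest, the 5 longest empty stretches, the 5 closest pairs, the 3 longest groups, and the 3 fullest and 3 emptiest windows. The members, measures and rules were chosen with earlier results of these data known. Python 3.11.15, numpy 2.4.6, scipy 1.17.1, pandas 2.3.3 and matplotlib 3.10.9 were used, and the tests were tried on simulated lists. Without a planted difference, simulated regions were placed independently, so the trial cannot show how dependence between neighbours affects p-values. The planted lists gave X more left regions and more close pairs, opposite to the directions found against II to V together. No result here rests on the trial. The gene table is of another build, so none of its coordinates were used and no region was given a gene or a sequence.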

Additional observations from a re-analysis of the deposited data

How the results depend on the processing

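No paired analysis was possible because regions have no values by replicate, and for that reason no replicate could be left out. Of 34 alternatives for X against II to V, 28 kept direction and side of the threshold; of 136 for single chromosomes, 98 did. Against gene number the density ratio was 0.95 and not called for II to V, and turned to 1.09 for II and 1.41 for V, since X has fewer genes for its length. Wider than 600 bp, the difference in wide regions was 2.71 points and not called. Merging regions within 1 kb creates wide regions from close pairs, and turned that difference to -1.37 points (II -0.0706, III -1.33, IV -2.34, V -1.47). Merging also removes close pairs, and the difference in close spacing became 0.0694 points (II 1.05, III 4.07, called, IV 0.519, V -6.07, called). Close spacing was not called with q under 0.001 (-3.58 points) or among the 2070 strongest regions (-0.211). At a fixed limit of 2 kb, not scaled to density, it was called against II (-3.72 points) and III (-7.11) too. Differences near 0 that were not called also changed sign. For close spacing these were II among the 2070 strongest (0.566) and III with q under 0.001 (0.568), among the 2070 strongest (2.07), without regions under 50 bp (0.160) and under 0.2 of the mean (0.306). For the left share of III they were 1.49 with q under 0.001, 5.68 among the 2070 strongest, 0.760 after merging and 1.57 with each span cut at its middle. The density of X fell below that of V, called, with q under 0.001 (0.843) and among the 2070 strongest (0.773). For the other changes the cause was not tested. Since depth is unknown, places outside the list, whose largest q-value was 0.00991, may still be bound.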

Other observations

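Of the 26 pairs of X with midpoints under 2 kb apart, both members were strong in 1 (3.85%), against 2 of 90 on V (2.22%) and 9.43% to 16.5% on II, III and IV. A strong region stood beside one with -log10 q under 3 in 8 of the 26 (30.8%), against 13.4% to 15.1% on each of II to V. The region at X:6091782-6092699, the 5th strongest of X, had such a neighbour 203 bp from its edge, with -log10 q of 2.37. For X pairs 2 to 20 kb apart the corresponding share was 11.1% (27 of 244), against 13.8% on II to V. For X pairs 20 kb or more apart it was 17.2% (45 of 261), against 14.8% on II to V. Regions with -log10 q under 3 made up 30.1% of all regions on X and 21.2% on II to V. The counts of pairs were chosen after the values were seen, and the differences were not tested.

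Strength on X was compared with isolation. The strong share was 29.4% among the 51 regions with a neighbour within 2 kb, 24.3% for a nearest neighbour at 2 to 5 kb, 27.3% at 5 to 10 kb, 17.1% at 10 to 20 kb and 27.5% at 20 to 50 kb. It was 16.0% among the 25 with none within 50 kb (95% exact interval 4.54% to 36.1%). The shares followed no order of distance, and no test was made. On II to V they ran from 32.0% to 40.2%.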
